A study of Mus musculus with 10 samples.

Results

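Apolipoproteins and plasma carrier proteins are the main secreted products of visceral endoderm, the epithelium that surrounds the early mouse embryo and feeds it before the placenta works. The 10 genes read here were Apoe, Apoa1, Apoa2, Apob, Apoc2, Apom, Trf, Ttr, Rbp4 and Afp, out of 16593 genes with a probe. They were taken by gene symbol in the probe annotation, which gave 10 probes for 9 of them. Apob has no probe under its symbol there and is not analysed here.

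Messenger RNA came from KH2 cells, a mouse embryonic stem cell line, carrying a doxycycline-inducible transgene for Sox17 with a V5 tag. Sox17 is a transcription factor of endoderm. Of the 10 Illumina bead arrays, 5 carry the label induced (Sox17-V5 expression, 48 h of doxycycline) and 5 the label uninduced (control, no induction), all of the same line. The treatment field of all 10 names doxycycline, and no label tells whether the arrays of a group stand for separate cultures or how many clones were used. The spread that p-values are based on may therefore be technical.

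Apolipoproteins coat lipid particles and let them bind receptors of the LDL receptor family. Transferrin carries iron, transthyretin and retinol-binding protein carry thyroid hormone and retinol, and alpha-fetoprotein is the albumin-like protein of the fetus. Endoderm takes such carriers up again through megalin, cubilin and amnionless.

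Arrays are named by label and title number. In the sample descriptions the replicate number runs from 1 to 3 and then starts again at 1, so that titles 4 and 5 are called run 2 and titles 1 to 3 run 1. Probes for odorant, vomeronasal and taste receptors, which mostly carry background, divided the arrays into induced 2 to 5 (the second array set) and the other 6 (the first set). Label and set therefore nearly coincide, and induced 1 is the only array labelled induced in the first set. Sox17 itself did not follow the labels. Its probe ILMN_2747986 read 16.7 and 15.0 on induced 4 and 5, at most 13.6 on induced 2 and 3 and 67.3 on induced 1, against 60.6 and 65.3 on uninduced 4 and 5 and 30.5 to 32.6 on uninduced 1 to 3. Probe ILMN_2784446 read -2.30 to 4.74 on induced 2 to 5 and 42.9 on induced 1, against 32.2 and 35.4 on uninduced 4 and 5 and 6.11 to 19.2 on uninduced 1 to 3. The position of these probes relative to the transgene is not known here. Each difference between labels below is one between the arrays so labelled. Values are described in 4 groups of arrays: induced 4 and 5, induced 2 and 3, induced 1 with uninduced 4 and 5, and uninduced 1 to 3. The third group joins arrays across the labels by how alike they were, so no test was made on it.

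Of the 9 genes with a probe, 3 lay above the background limit of 10.6 on all 10 arrays: Apoe, Apoa2 and Trf. Intensities are the authors' normalized, background-subtracted values, and the limit is the 95th percentile of background judged from values below 0. Apoc2, Apoa1 and Apom were dim but above it on at least 5 arrays, the number needed for a test, and Rbp4, Ttr and Afp were not. The level of one gene's probe cannot be set against another's.

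Apoe was the member that changed with the run. It encodes apolipoprotein E, a ligand of the LDL receptor family made by visceral endoderm, liver, astrocytes and macrophages. Its probe read 2529 and 3057 on induced 4 and 5, 1766 and 2040 on induced 2 and 3, and 2942 on induced 1, against 3053 and 2824 on uninduced 4 and 5 and 1687, 1486 and 1655 on uninduced 1 to 3. All 4 arrays of run 2 and induced 1 lay above the other 5 arrays, whichever label they carry.

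Run 2 was set against run 1 within each label and array set, to separate the run from both. Apoe rose by 0.71 ± 0.08 on the log2 scale of intensity plus 16 (standard error, limma adjusted p = 0.000634), which is 1.63-fold. The contrast does not use induced 1. The rise was 0.55 between the arrays labelled induced of the second set (adjusted p = 0.107 in those 4 arrays alone) and 0.86 between those labelled uninduced (adjusted p = 0.00514 in those 5 alone). The difference between these values, -0.32 ± 0.17, did not pass the test (adjusted p = 0.508). Apoe passed the run test without each of the 10 arrays in turn, with values from 0.64 to 0.77. Counting induced 1 in run 1, as its title has it, gave 0.60 (adjusted p = 0.0381).

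Between the labels Apoe did not pass. The arrays labelled induced averaged 2467 ± 559 and those labelled uninduced 2141 ± 736 (SD, n = 5 each), a difference of 0.24 ± 0.23 (limma adjusted p = 0.452, exact permutation p = 0.325, two-sided, 252 arrangements). Within run 2 the difference was -0.08 (adjusted p = 0.685), and within the arrays titled 1 to 3 it was 0.45 (adjusted p = 0.255). The second value rests partly on induced 1: induced 2 and 3 alone stood 0.24 above uninduced 1 to 3.

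**Figure D1:**
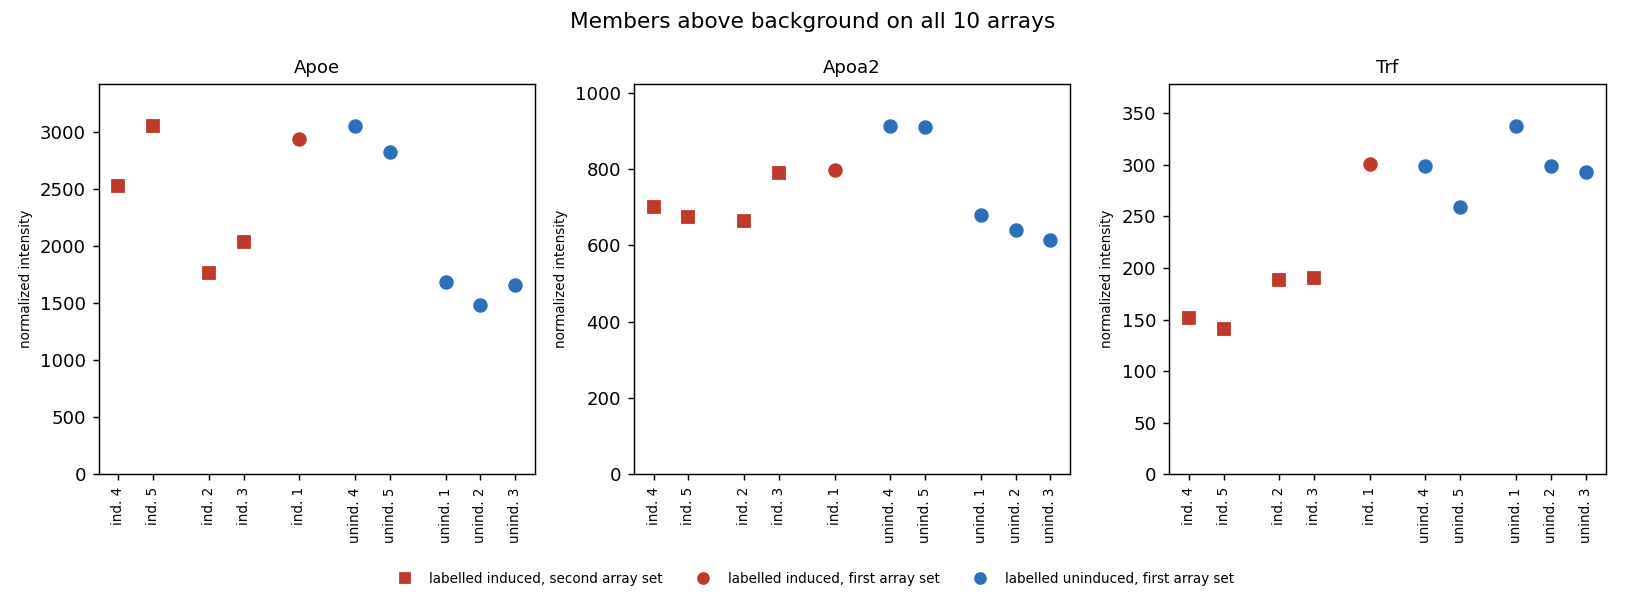
Normalized intensity (vertical axes, from 0) of Apoe, Apoa2 and Trf on each array, ordered by label and title number; each point is 1 array, squares are the second array set and circles the first. Apoe is at 2529 or above on the run 2 arrays and induced 1 and at 2040 or below on the rest, while Trf is at 191 or below on induced 2 to 5 and at 259 or above on the other 6.

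Trf was lower on the arrays labelled induced, with the exception of induced 1. It encodes transferrin, the iron carrier of plasma, which visceral endoderm also secretes. Its probe read 151 and 141 on induced 4 and 5, 188 and 191 on induced 2 and 3 and 300.4 on induced 1, against 299 and 259 on uninduced 4 and 5 and 338, 299 and 292 on uninduced 1 to 3. The labels overlap through induced 1 alone, which read within the range of the arrays labelled uninduced.

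Trf fell by 0.62 ± 0.17 (log2, limma adjusted p = 0.0315, exact permutation p = 0.0397), at 194 ± 63.2 on the arrays labelled induced and 297 ± 28.2 on those labelled uninduced (SD, n = 5 each). Within run 2 the difference was -0.86 (adjusted p = 0.00658), and within run 1 it was -0.45 (adjusted p = 0.241). A fit that blocked on array set, which leaves induced 1 as the only array labelled induced to set against the others, gave 0.02 (adjusted p = 0.991). Without induced 1 it was -0.77 and without uninduced 5 it was -0.66, both past the test. Without any one of the other 8 arrays it was -0.62 to -0.52 and missed the test (adjusted p = 0.0534 to 0.0817). Label and array set cannot be told apart for Trf in induced 2 to 5. Between the runs Trf stood at -0.24 ± 0.07 (adjusted p = 0.0525). It passed with a constant of 64 in place of 16 (adjusted p = 0.0253), with a stricter background limit (0.0446), and without uninduced 4, where it was -0.29.

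Apoa2 did not pass in either comparison. It encodes apolipoprotein A-II, a structural protein of high-density lipoprotein. Its probe read 700.0 and 675 on induced 4 and 5, 665 and 790.3 on induced 2 and 3 and 797 on induced 1, against 914 and 910.4 on uninduced 4 and 5 and 679, 641 and 614 on uninduced 1 to 3. Among the arrays labelled uninduced, run 2 lay above run 1 without overlap, while among those labelled induced the runs overlapped.

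The difference of Apoa2 between the labels was -0.03 ± 0.13 (limma adjusted p = 0.863), with 726 ± 63.6 on the arrays labelled induced and 752 ± 148 on those labelled uninduced (SD, n = 5 each). Within run 2 alone it was -0.40 and passed (adjusted p = 0.0360), and within run 1 alone it was 0.21 and did not (adjusted p = 0.331). Between the runs Apoa2 stood at 0.21 ± 0.07 (adjusted p = 0.0813). The run difference was 0.49 in the arrays labelled uninduced (adjusted p = 0.0210 in those alone) and -0.07 in the second set of those labelled induced, and the difference between these, -0.57 ± 0.14, did not pass across all probes (adjusted p = 0.233). Without induced 3 the run difference was 0.27 and passed. A constant of 64 gave 0.20, which passed too (adjusted p = 0.0275).

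The other tested members lay close to background. Apoa1 encodes apolipoprotein A-I, the main protein of high-density lipoprotein. It read 8.41 and 4.41 on induced 4 and 5, 14.4 and 8.32 on induced 2 and 3 and 8.002 on induced 1, against 13.7 and 22.0 on uninduced 4 and 5 and 20.2, 23.6 and 10.6 on uninduced 1 to 3. Of the arrays labelled induced 1 of 5 exceeded the background limit, and of those labelled uninduced 4 of 5 did, so that no fold is given. Uninduced 3 read just under it.

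The Apoa1 probe met the filter of 5 arrays mostly through the arrays labelled uninduced, so a difference from the arrays labelled induced is one against background. Its value of -0.46 ± 0.13 on the log2 scale of intensity plus 16 (limma adjusted p = 0.0393, exact permutation p = 0.0238) depends on the added constant and was -0.79 with 4 and -0.17 with 64. It passed in 8 of 20 alternatives. Without 1 array it passed when uninduced 4 or induced 1 was left out and missed for the other 8 (-0.54 to -0.39, adjusted p = 0.0502 to 0.0935). Blocking on array set gave -0.49 (adjusted p = 0.912). Its run difference was -0.14 ± 0.14 (adjusted p = 0.558).

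Apoc2, the cofactor of lipoprotein lipase, has 2 probes, which disagreed. Probe ILMN_2647820 read 8.74 to 27.7 on the arrays labelled induced and 15.4 to 26.4 on those labelled uninduced, with a difference of -0.10 ± 0.15 (adjusted p = 0.624). Probe ILMN_2880540 read 12.7 to 35.1 on the arrays labelled induced and 5.97 to 14.1 on those labelled uninduced, with a difference of 0.40 ± 0.16 (adjusted p = 0.0857). The second probe passed without induced 1 (0.48), with array weights (adjusted p = 0.0340) and within run 2 alone (0.84, adjusted p = 0.0225). Neither changed with the run (-0.01 ± 0.14 and 0.00 ± 0.12, adjusted p = 0.966 and 0.995).

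Apom encodes apolipoprotein M, which carries sphingosine 1-phosphate. Its readings of 7.75 to 13.5 on the arrays labelled induced and 5.55 to 13.7 on those labelled uninduced straddled the limit and stayed under the stricter limit of 15.0, the 99th percentile of background, on all 10. Its differences were 0.04 ± 0.10 between the labels (adjusted p = 0.800) and 0.02 ± 0.08 between the runs (adjusted p = 0.904).

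Ttr and Afp, carriers that sharply mark visceral endoderm, were not measured above background on any array, and Rbp4 was on 3 of the 10. Ttr, which encodes transthyretin, read -10.6 to -4.12 on the arrays labelled induced and -7.42 to -4.75 on those labelled uninduced, and so was below 0 on all 10. Afp, which encodes alpha-fetoprotein, read -2.79 to 0.21 on the arrays labelled induced and -8.57 to -4.67 on those labelled uninduced. No Afp reading reached the limit, and values under it have no order, so no difference between the labels is read from them. Rbp4, which encodes retinol-binding protein 4, read -0.56 to 13.8 on the arrays labelled induced and 2.47 to 13.9 on those labelled uninduced, above the limit on induced 1, uninduced 1 and uninduced 3. Signal below the limit does not show that a transcript is absent. With 3 of the 9 genes above background on all arrays, and Ttr and Afp under it on all, the name visceral endoderm describes what the genes are known for and not these cells.

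**Figure D2:**
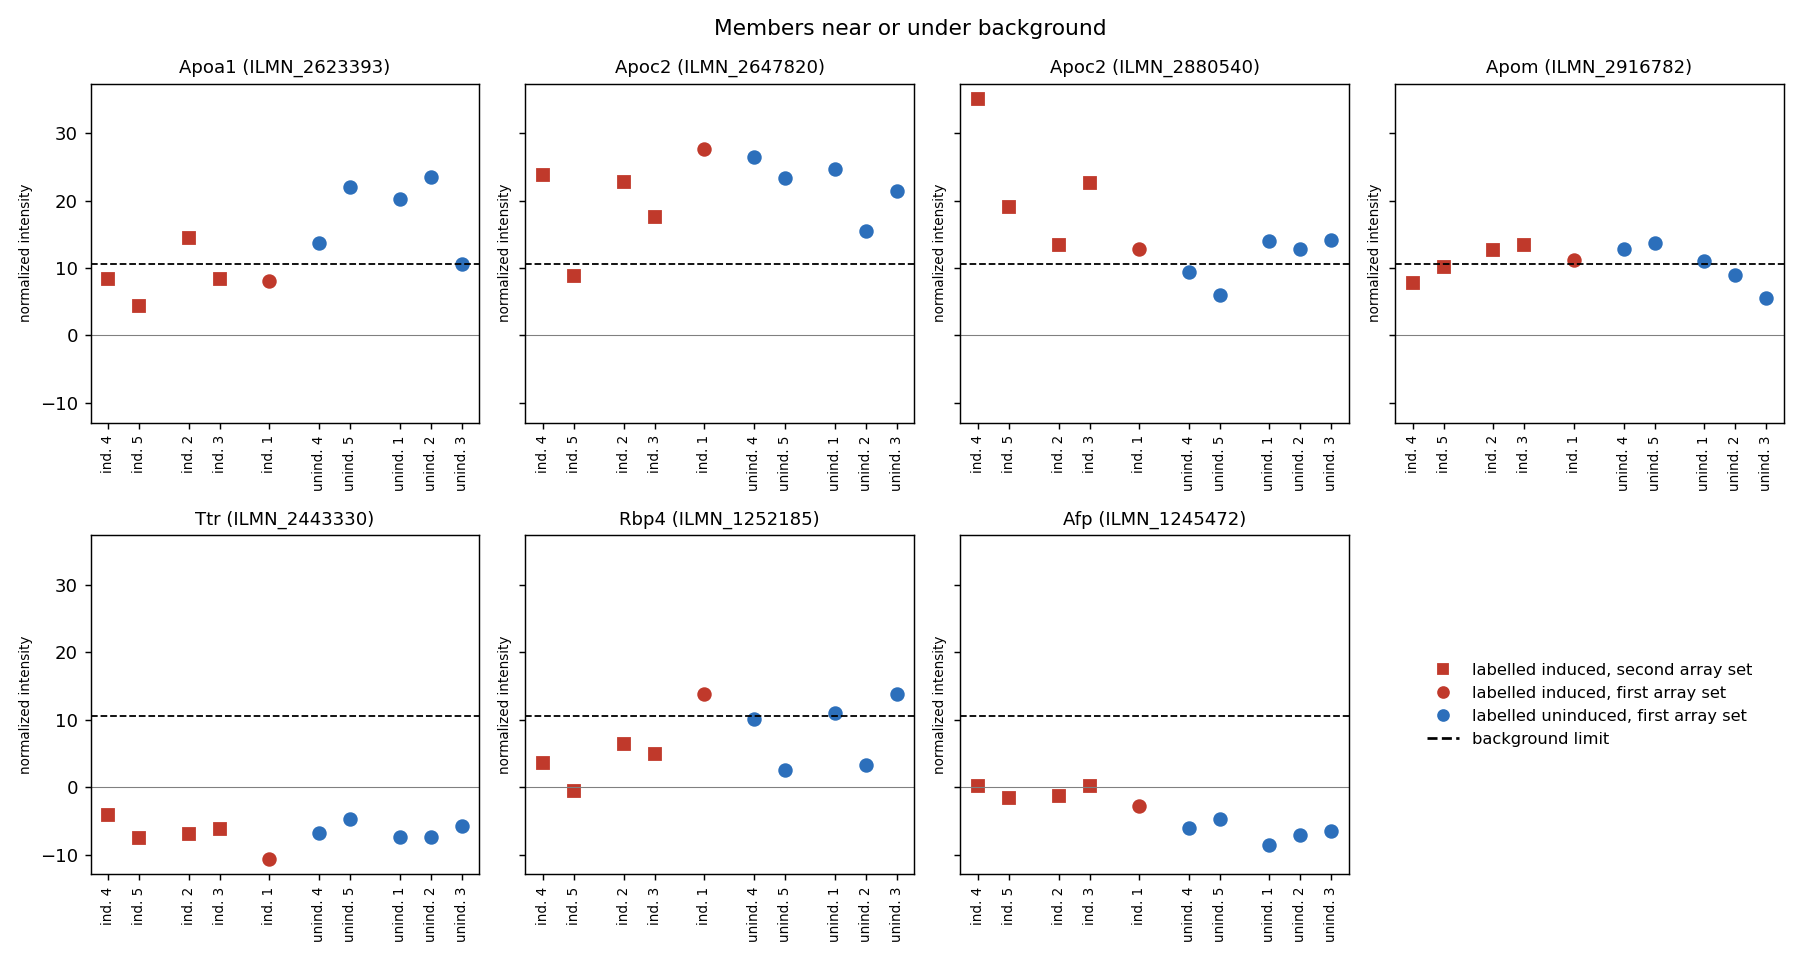
Normalized intensity (vertical axes, shared) of the 7 probes of Apoa1, Apoc2, Apom, Ttr, Rbp4 and Afp on each array; points are single arrays, the dashed line is the background limit of 10.6 and the grey line is 0. Ttr and Afp are under the limit on all arrays, and the other readings lie around it, up to 35.1 for Apoc2.

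Of the 6 tested members, represented by their brightest probe, 0 rose and 2 fell between the labels (33.3%), beside 19.5% of all 10087 tested genes called in either direction, 8.5% higher and 11.0% lower. One of the 2 is Apoa1, whose readings labelled induced were mostly background. The median difference was -0.07 for the members and -0.01 for all genes. Between the runs 1 rose and 0 fell (16.7%), which is the share of all tested genes called in that comparison, 16.7% (7.56% higher and 9.12% lower), with medians of 0.00 and -0.01. For the difference of the run effect between the labels 0 members were called by limma, beside 0.0198% of all genes; Apoa2, Apom and Apoc2 probe ILMN_2880540 were under an unadjusted p of 0.05 (0.00299, 0.0147 and 0.0274).

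**Figure D3:**
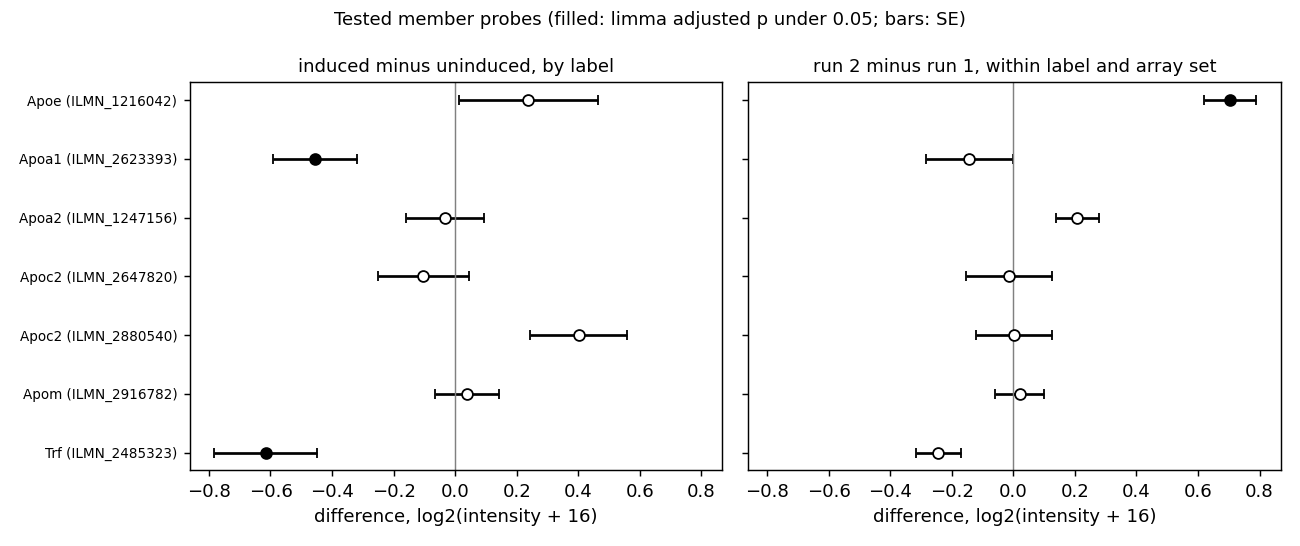
Differences of the 7 tested member probes on the log2 scale of intensity plus 16 (horizontal axes), between the labels (left) and between the runs within label and array set (right); bars are standard errors and filled points passed limma's test. Apoa1 and Trf passed between the labels, at -0.46 and -0.62, and Apoe passed between the runs, at 0.71.

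The promoter windows of RefSeq (build GRCm38.p6, 250 bases before to 50 after a start) are shown for the members that passed a test and have an entry. Trf has none in the table used here. Capitals mark the letters ACAATG, a SOX-type motif, searched on both strands.
Apoe, chr7:19699139-19699438, minus strand: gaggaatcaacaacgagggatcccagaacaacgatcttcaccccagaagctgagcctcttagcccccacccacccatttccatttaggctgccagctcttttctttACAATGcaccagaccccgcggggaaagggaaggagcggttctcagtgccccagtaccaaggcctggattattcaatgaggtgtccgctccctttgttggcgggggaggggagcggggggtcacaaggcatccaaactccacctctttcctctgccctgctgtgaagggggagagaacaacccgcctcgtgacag
Apoa1, chr9:46228380-46228679, plus strand: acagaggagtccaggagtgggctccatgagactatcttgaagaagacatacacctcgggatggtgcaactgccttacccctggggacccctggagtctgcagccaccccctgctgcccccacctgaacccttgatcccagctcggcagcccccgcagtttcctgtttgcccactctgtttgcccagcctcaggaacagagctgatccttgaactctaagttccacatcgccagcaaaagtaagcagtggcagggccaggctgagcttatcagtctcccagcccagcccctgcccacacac

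The Apoe window printed holds 1 match to ACAATG, as do 12.6% of all 32851 windows in the table with 1 or more. Neither window printed holds AGATAA, the motif of the factor family of Gata6, on either strand, which 11.2% of all windows do. Neither holds the HNF1 half-site GTTAAT, found in 7.10% of windows. The HNF4 site CAAAGTCCA, found in 0.475%, was absent from both too. Apoe has 2 further windows, of which 1 holds the HNF1 half-site and neither holds ACAATG. Such matches describe letters and not binding, and no binding was measured.

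Genes beside Apoe on mouse chromosome 7 did not all share its pattern. In RefSeq order its nearest neighbours are Apoc1, Apoc4 and Apoc2 on one side and Tomm40, Nectin2 and Bcam on the other. Apoc1, which encodes an inhibitor of lipoprotein uptake, rose with the run by 0.29 ± 0.07 (adjusted p = 0.0290). It read 615 and 594 on induced 4 and 5, 470.0 and 556 on induced 2 and 3 and 775 on induced 1, against 752 and 818 on uninduced 4 and 5 and 575 to 657 on uninduced 1 to 3. On induced 2 to 5 and on the other 6 arrays alike, run 2 lay above run 1, and induced 1 lay with run 2. Tomm40 (0.24, adjusted p = 0.231), Nectin2 (-0.01, adjusted p = 0.970) and Bcam (-0.22, adjusted p = 0.134) did not pass, and Apoc4 was under the limit on all arrays.

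The genes most like Apoe across the 10 arrays, by the root mean square difference of centred log2 values, were Nrp2 (0.11), Ppp1r14a (0.13) and Mib2 (0.13). Nrp2 was dim, at 13.54 to 18.24 on uninduced 1 to 3 and 14.76 on induced 2, near the background limit, and at most 40.65. The constant added before log2 narrows the differences of such dim readings, and so enters its rank. Nrp2 is a neuropilin receptor of semaphorins and VEGF, Ppp1r14a an inhibitor of myosin phosphatase and Mib2 a ubiquitin ligase of Notch ligands. Mib2 read 1068 and 1040 on induced 4 and 5, 760 and 871 on induced 2 and 3 and 1247 on induced 1, against 1211 and 1151 on uninduced 4 and 5 and 705 to 757 on uninduced 1 to 3. The genes most like Trf were Slc25a36 (0.07), a mitochondrial nucleotide carrier, Selenon (0.07), a selenoprotein of the endoplasmic reticulum, and C2cd2 (0.08). Selenon read 222 and 230.0 on induced 4 and 5, 287 and 290 on induced 2 and 3 and 464 on induced 1, against 472 and 413 on uninduced 4 and 5 and 475 to 495 on uninduced 1 to 3. These genes were picked for their likeness, which is no test of it.

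Other apolipoprotein genes split between the runs. Of 12 with a probe, among them Apobr for a receptor, 5 were tested. In run 2, 2 rose and 1 fell, a share of 60.0% beside 16.7% of all tested genes. Apod, which encodes a lipocalin, rose by 0.69 ± 0.10 (adjusted p = 0.00159) and read 50.8 and 35.2 on induced 4 and 5, 20.3 and 28.3 on induced 2 and 3 and 99.0 on induced 1, against 106 and 110.0 on uninduced 4 and 5 and 51.1 to 57.9 on uninduced 1 to 3. Clu, which encodes the extracellular chaperone clusterin or apolipoprotein J, fell by 0.50 ± 0.06 (adjusted p = 0.000488), and read 485 and 479 on induced 4 and 5, 886 and 845 on induced 2 and 3 and 450.8 on induced 1, against 502 and 505 on uninduced 4 and 5 and 554 to 591 on uninduced 1 to 3. Between the labels 0 of the 5 passed, beside 19.5% of all tested genes. Apoa4, Apoa5, Apoc3, Apoc4 and Apoh, all made by liver or intestine, were under the limit on all 10 arrays, as were Apoo and Apool.

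Of 23 other carrier and plasma protein genes with a probe, not all for secreted proteins, 10 were tested. In run 2, 2 of the 10 rose and 0 fell, beside 16.7% of all tested genes called in either direction, so the count was near that share. The 2 were Fetub, of the fetuin family (0.60 ± 0.08, adjusted p = 0.00123), and Fabp3, a fatty acid-binding protein (0.27 ± 0.06, adjusted p = 0.0141). Fetub read 40.1 and 38.5 on induced 4 and 5, 21.8 and 24.8 on induced 2 and 3 and 43.5 on induced 1, against 54.4 and 48.8 on uninduced 4 and 5 and 22.4 to 31.5 on uninduced 1 to 3. Between the labels 3 of the 10 rose and 0 fell, beside 19.5% of all tested genes called in either direction. The 3 were Cp, the copper ferroxidase ceruloplasmin, Rbp2 (0.82 ± 0.22), a cellular retinol-binding protein, and Ahsg (0.36 ± 0.12), fetuin-A. Cp read 38.6 to 41.7 on induced 2 to 5 and 9.22 on induced 1, against -2.95 to 17.8 on the arrays labelled uninduced. It was above the limit on induced 2 to 5 and uninduced 1 alone, and so was tested only because of the arrays where it was high, and no size is given for its difference. Alb, the albumin gene beside Afp, was under the limit on all arrays, as were 9 others of this list.

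Receptors that take up these carriers fell between the labels where they passed the test. Of 11 with a probe, 8 were tested, and 0 rose and 5 fell (62.5%, beside 11.0% of all tested genes), with a median of -0.57 for the list. The 5 include Tfr2, which met the filter only through the arrays where it was high, so its fall is one against background. Vldlr, a receptor for Apoe-bearing particles, fell by 1.97 ± 0.54 (adjusted p = 0.0327) and Lrp1, a large receptor of the same family, by 0.65 ± 0.16. Lrp1 read 10.09 to 15.05 on induced 2 to 5, close to the limit. Amn, the membrane anchor of cubilin, fell by 0.56 ± 0.14, and Sort1, a sorting receptor named here after its values were seen, by 0.44 ± 0.14. Vldlr read 19.8 and 18.9 on induced 4 and 5, 77.3 and 100.3 on induced 2 and 3 and 377 on induced 1, against 332 and 280.3 on uninduced 4 and 5 and 334 to 365 on uninduced 1 to 3. Tfr2, the second transferrin receptor and the fifth of these genes, was under the limit on induced 2 to 5 (1.04 to 5.82) and read 20.5 on induced 1, against 21.4 to 34.9 on the arrays labelled uninduced. As with Trf, induced 1 stood apart from induced 2 to 5. It read above all arrays labelled uninduced for Vldlr and just under them for Tfr2.

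Under a block on array set 0 of these 8 receptor genes were called and the median was 0.00, and within run 1 alone 0 were called with a median of -0.35. Without induced 1, where label and set coincide and the most probes of all were called, 7 fell. Without uninduced 1 to 5 in turn 0, 0, 0, 3 and 4 fell, and without induced 2 to 5 in turn 0, 1, 0 and 0. Of all 10087 tested genes, 2 to 2426 fell between the labels when 1 array was left out. Between the runs 0 of the 8 rose and 3 fell, a share of 37.5% beside 16.7% of all tested genes. These were Vldlr (-0.86 ± 0.09), Amn (-0.36 ± 0.08) and Tfrc, the main transferrin receptor (-0.30 ± 0.07). Vldlr stood at -1.56 in the second set of the arrays labelled induced and -0.17 in those labelled uninduced (limma adjusted p = 0.00468 and 0.339 in those alone). Lrp2, which encodes megalin, was above the limit on 2 arrays and not tested.

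Of 9 tested genes of lipoprotein assembly and remodelling, 0 rose and 2 fell between the labels, a share of 22.2% beside 19.5% of all tested genes: Abcg1, a sterol exporter (-1.06 ± 0.30), and Pltp, a phospholipid transfer protein (-0.77 ± 0.20). Abcg1 was under the limit on induced 3 and 4. Without induced 1, where the most probes of all were called, the list held 1 rise and 3 falls. Between the runs 0 rose and 3 fell, a share of 33.3% beside 16.7% of all tested genes: Lpl, lipoprotein lipase (-1.10 ± 0.07), Dgat2, which makes triglyceride (-1.03 ± 0.06), and Pltp (-0.49 ± 0.09). Pltp stood at -0.80 in the second set of the arrays labelled induced and -0.17 in those labelled uninduced (limma adjusted p = 0.0562 and 0.269 in those alone). Dgat2 read 156 and 157 on induced 4 and 5, 323 and 327 on induced 2 and 3 and 208 on induced 1, against 186 and 185 on uninduced 4 and 5 and 394 to 422 on uninduced 1 to 3. It was thus low on the arrays where Apoe was high. Mttp, which loads lipid onto apolipoprotein B, stood at -0.18 ± 0.11 between the labels and -0.03 ± 0.12 between the runs, and passed neither test (adjusted p = 0.264 and 0.922).

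Iron handling genes other than the receptors held 1 change in each comparison among 5 tested, that of Slc40a1, the iron exporter ferroportin. It rose by 1.06 ± 0.24 between the labels (adjusted p = 0.0221) and by 0.57 ± 0.09 between the runs (adjusted p = 0.00241). It read 336 and 248 on induced 4 and 5, 179 and 166 on induced 2 and 3 and 107 on induced 1, against 106 and 104 on uninduced 4 and 5 and 71.5 to 73.5 on uninduced 1 to 3. Without a single array, Slc40a1's list held 0 to 1 rises between the labels and 1 to 2 between the runs. The counts between the labels for all lists rest on the full set of arrays: each fell to 0 without at least 1 of them, and under a block on array set 0 of all probes were called. Of 6 retinol handling genes tested, 1 fell between the labels (16.7%, beside 19.5% of all tested genes) and 0 changed between the runs, beside 16.7% of all tested genes. The 1 was Rarb, a retinoic acid receptor (-0.54 ± 0.14, limma adjusted p = 0.0264). Rarb read 9.89 to 15.2 on induced 2 to 5, close to the limit. It read 27.4 on induced 1, against 24.65 to 33.5 on the arrays labelled uninduced. With a block on array set its difference was -0.03.

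**Figure D4:**
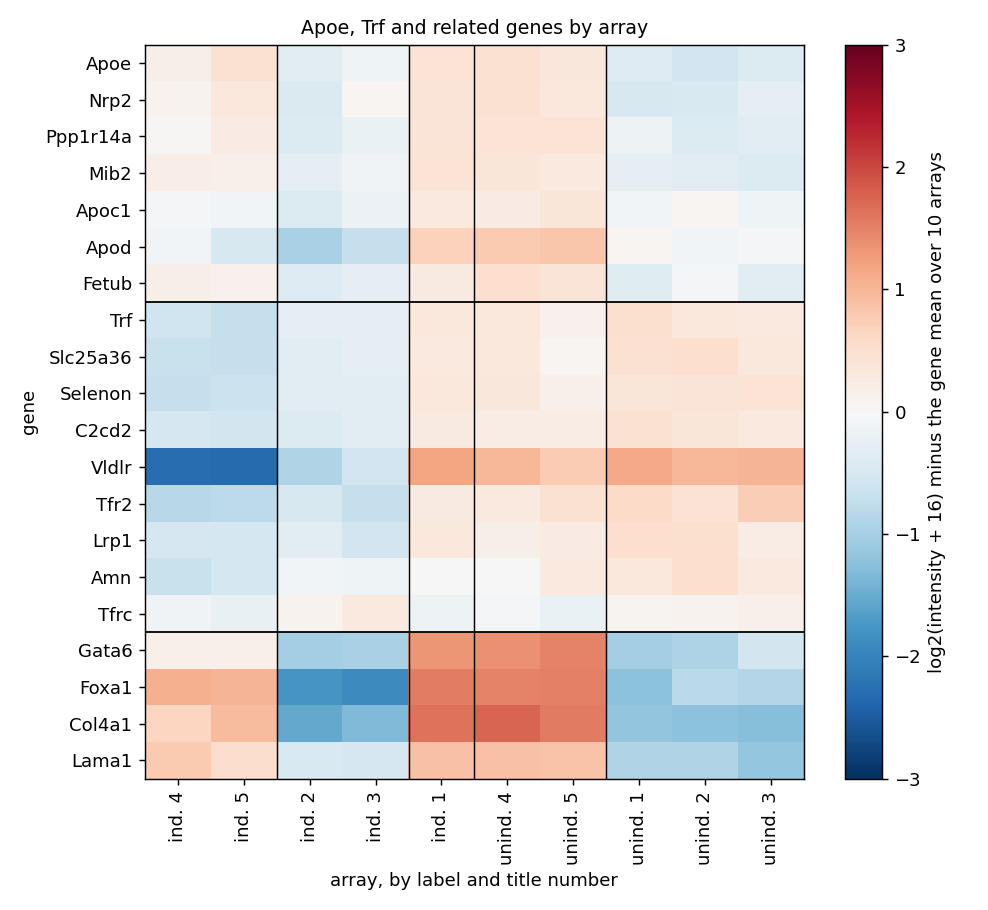
Log2(intensity + 16) minus each gene's mean over the 10 arrays, as colour, for Apoe and genes that were like it or rose with the run (top), Trf with genes like it and receptors (middle) and endoderm genes (bottom); columns are single arrays by label and title number. Apoe is above its mean on the run 2 arrays and induced 1, and Trf is below its mean on induced 2 to 5.

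Some other endoderm genes changed between the runs, and their values stand beside that of Apoe. Of 10 endoderm regulators tested, 3 rose in run 2, 1 fell and 6 were not called, a share of 40.0% beside 16.7% of all tested genes. The 3 were Foxa1, a pioneer factor (2.67 ± 0.09), Gata6, the primitive endoderm regulator (1.71 ± 0.10), and Sox7, a relative of Sox17 (0.32 ± 0.06). Gata6 read 171 and 172 on induced 4 and 5, 66.4 and 69.1 on induced 2 and 3 and 406 on induced 1, against 420 and 454 on uninduced 4 and 5 and 67.3 to 97.8 on uninduced 1 to 3. Foxa1 was under the limit on induced 2 and 3. Sox7 did not go one way: it read 60.2 and 59.2 on induced 4 and 5, 72.3 and 76.5 on induced 2 and 3 and 190.3 on induced 1, against 215 and 225 on uninduced 4 and 5 and 107 to 116 on uninduced 1 to 3. Its run difference was -0.26 in the second set of the arrays labelled induced (adjusted p = 0.262 in those alone) and 0.90 in those labelled uninduced (adjusted p = 0.00270). Of 10 parietal endoderm markers tested, 4 rose, 0 fell and 6 were not called (40.0%), with Col4a1 (2.57 ± 0.09), Col4a2 (2.38 ± 0.06) and Lama1 (1.496 ± 0.08), all basement membrane genes, rising most. The summed intensity of the 12 markers with a probe was 11060 to 11150 on induced 4 and 5, 6903 to 7245 on induced 2 and 3 and 16880 on induced 1, against 15850 to 17230 on uninduced 4 and 5 and 7227 to 7432 on uninduced 1 to 3. The part of these cells or genes in the Apoe result was not tested. Hnf4a, which activates apolipoprotein genes in liver, stood at -0.02 ± 0.07 between the runs (adjusted p = 0.898) and rose by 0.48 ± 0.09 between the labels (adjusted p = 0.0202).

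Of 5 definitive endoderm markers tested, 2 rose between the labels (40.0%, beside 19.5% of all tested genes). Between the runs 1 rose and 1 fell (40.0%, beside 16.7% of all tested genes). Otx2, a homeobox gene of anterior endoderm and epiblast, rose in both, by 0.84 ± 0.23 between the labels (adjusted p = 0.0337) and 0.64 ± 0.09 between the runs (adjusted p = 0.00143). It read 899 and 1105 on induced 4 and 5, 757 and 931 on induced 2 and 3 and 778 on induced 1, against 793 and 722 on uninduced 4 and 5 and 360.1 to 366 on uninduced 1 to 3. Sfrp5, a secreted Wnt antagonist, was the other that passed between the labels, at 8.96 to 23.0 on the arrays labelled induced and -0.79 to 10.8 on those labelled uninduced. It was above the limit on induced 2 to 5 and uninduced 5 alone. It was thus tested only because of the arrays where it was high, and its rise is one against background. The one that fell between the runs was Hhex (-0.25 ± 0.06), which is also the endoderm regulator that fell. The part of these markers in the results for Apoe and Trf was not tested.

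Markers of other cells were read too. All 9 pluripotency genes with a probe were above the limit on all arrays, among them Pou5f1 at 6521 to 9471 on the arrays labelled induced and 6476 to 8181 on those labelled uninduced. Between the labels 33.3% of the 9 were called, beside 19.5% of all tested genes: 1 rose, Utf1 (0.38 ± 0.11), and 2 fell, Klf4 (-0.78 ± 0.16) and Sox2 (-0.29 ± 0.08). Between the runs 22.2% of the 9 were called, beside 16.7% of all tested genes: Pou5f1 rose (0.31 ± 0.07, adjusted p = 0.0161) and Tdgf1 fell (-0.71 ± 0.15, adjusted p = 0.0144). Their part in the results for Apoe and Trf was not tested. Of 8 hepatocyte markers 6 were under the limit on all arrays, and of 6 macrophage markers 4 were, including Lyz2 and Ptprc. The summed macrophage markers were 6.13 to 13.8 on induced 4 and 5, 18.1 to 27.3 on induced 2 and 3 and 28.4 on induced 1, against 22.8 to 31.7 on uninduced 4 and 5 and 20.1 to 37.8 on uninduced 1 to 3, which is mostly background. Their part in the Apoe result was not tested. Of 10 fibroblast markers 4 were under the limit on all arrays, including Col3a1 and Dcn. The 4 tested all passed between the labels, 2 higher and 2 lower, beside 19.5% of all tested genes. Among these, Prrx1 was under the limit on induced 2 to 5 and Acta2 on uninduced 2, 3 and 5. Of the 4, Thy1, which stem cells can also express, fell between the runs too (-0.74 ± 0.08, adjusted p = 0.000354), a share of 25.0% beside 16.7% of all tested genes. In RNA from whole cultures, fewer cells of a type and less RNA per cell cannot be told apart.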

How the data were processed

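The deposited values are 1 normalized intensity per probe and array for 10 Illumina bead arrays. The authors had subtracted background, since 25.5% of the deposited intensities lie below 0, and had scaled arrays to each other, since the 75th percentile is 250.0 on each; their software is not stated in the sources read. A second deposited table of 20 columns, whose sample numbers occur in no label, was not used.

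Negative intensities were replaced by 0, and log2 was taken after adding 16. The background SD of 6.45, from values below 0 mirrored about 0, gave the limits of 10.6 and 15.0. The 14985 of 25697 probes above 10.6 on at least 5 arrays were tested with limma 3.58.1 in R 4.3.3 (lmFit, eBayes, two-sided), with Benjamini-Hochberg adjustment over all of them and a threshold of 0.05. Genes (23978 probes carry a symbol, 23962 matched by Entrez identifier to RefSeq) stand by their brightest tested probe. The number of arrays limits the precision.

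The label fit used the 2 group means, and the run fit a mean for each combination of label, run and array set. Array sets came from the largest gap on the first principal component of 1357 chemosensory receptor probes. Alternatives were the added constant (4 or 64), the filter, a further quantile normalization, array weights, blocks, single runs or labels, and each array left out. The scripts were tested on simulated data. The members, gene lists and groups of arrays were chosen with earlier results of these data known. Named genes are all members, up to 3 called genes of a list with the largest change in each comparison, and the 3 genes most like each member that is above the limit on all arrays and spans at least 1 log2 unit. Plots were drawn with matplotlib 3.10.9.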

Additional observations from a re-analysis of the deposited data

Results flagged for a closer look

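Apom moved in opposite directions between the runs on every array used. It read 7.75 and 10.2 on induced 4 and 5, below the 12.6 and 13.5 of induced 2 and 3, while uninduced 4 and 5 read 12.8 and 13.7, above the 5.55 to 11.1 of uninduced 1 to 3. The difference of the run effects, induced minus uninduced, was -0.48 on the log2 scale and did not pass limma's test across all probes (adjusted p = 0.310). The highest of its 10 readings was 13.7, against the limit of 10.6.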

How the results depend on the processing

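Between the labels 2919 probes were called, 1358 of them higher and 1561 lower. The number was 549 with no filter on dim probes, 7313 with array weights, 4400 in run 2 alone, and 0 by limma both in run 1 alone (2987 at an unadjusted p under 0.05) and under a block on array set (724). Leaving out 1 array gave 14 to 6821, the highest without induced 1. Between the runs 2318 probes were called, 767 with induced 1 kept in run 1, 1137 in the arrays labelled uninduced alone and 574 in the second set of those labelled induced alone. For the difference of run effects 2 were called, 13 and 83 with added constants of 4 and 64, 36 with no filter, 9 with the stricter filter and 0 to 2 without 1 array. The sign turned under some alternatives for 5 member probes between the labels, of which Trf alone had passed the test, and for 4 between the runs, none of which had. Between the labels Apoe turned to -0.0782 in run 2 alone, and Trf to 0.0194 with the array set as a block. Apoa2 turned to 0.0276 with array weights, 0.10 with the set as a block and 0.21 in run 1 alone, and ranged from -0.10 to 0.041 without 1 array. Apoc2 probe ILMN_2647820 turned to 0.20 with the set as a block and 0.0826 in run 1 alone, and ranged from -0.18 to 0.0257 without 1 array. Apom turned to -0.23 in run 2 alone and ranged from -0.0323 to 0.0846. Between the runs Apoa2 turned to -0.0747 and Apom to -0.22 in the second set of the arrays labelled induced, and Apom ranged from -0.0244 to 0.0579 without 1 array. Probe ILMN_2647820 turned to 0.0004 with a constant of 64 and 0.17 in the arrays labelled uninduced, and ranged from -0.18 to 0.16. Probe ILMN_2880540 turned to -0.0623 with a constant of 4 and -0.32 in the arrays labelled uninduced, and ranged from -0.13 to 0.14. Apart from the array set, runs and single arrays, whose construction changes which arrays are compared, the cause was not tested. Deviations of same-numbered arrays from their label means correlated at 0.29 to 0.31 for titles 2 to 5 and at -0.06 for title 1, so the numbers were not taken as pairs. With the replicate block 3344 probes were called between the labels, and the calls of the tested members did not change (Trf -0.62, adjusted p = 0.0148). Among genes of the lists, Ahsg (adjusted p = 0.0598) and Sox2 (0.0521) were no longer called, and Lpl (0.00770), Dgat2 (0.0391), Apof (0.0406) and Nr5a2 (0.0312) were.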

Other observations

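Afp, in which 0 of 10 readings reached the background limit, read -2.79 to 0.21 on the arrays labelled induced and -8.57 to -4.67 on those labelled uninduced. Induced 1, which read with the arrays labelled uninduced for Trf, read -2.79 for Afp. Values under the limit have no order, and Afp was not tested.

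Beside Trf on chromosome 9, the neighbouring gene 1300017J02Rik rose between the labels (0.52, limma adjusted p = 0.0315), at 29.9 and 30.4 on induced 4 and 5, 35.1 and 42.2 on induced 2 and 3 and 23.3 on induced 1, against 15.9 and 8.81 on uninduced 4 and 5 and 19.4 to 23.0 on uninduced 1 to 3. Rab6b, further along on the other side, fell (-0.61, adjusted p = 0.0317). Srprb and Cdv3 stood at -0.11 and 0.01 and did not pass (adjusted p = 0.356 and 0.939). These neighbours were read after the values of Trf were known.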
